A study of Mus musculus with 6 samples.

Results

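The MHC class II presentation genes described here are H2-Aa, H2-Ab1 and H2-Eb1, which encode chains of the class II molecules I-A and I-E, H2-DMa and H2-DMb1, which encode the 2 chains of the peptide exchange factor H2-DM, Cd74, which encodes the invariant chain, Ctss, which encodes the protease cathepsin S, and Ciita, which encodes the class II transactivator. They are 8 of the 54232 genes in the deposited count table, found by symbol. H2-Aa was chosen by its counts in the same 6 libraries, for its rise in Pbrm1 cKO, so its values are a description and are not tested. The other 7 were listed beside it by function with earlier results of these data known, so their tests are not independent evidence.

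RNA-seq had been carried out on primary muscle cells of the oviduct on day 2 of pregnancy, with 3 libraries from WT mice and 3 from mice in which Pbrm1 was conditionally deleted (Pbrm1 cKO), all aged 8 to 12 weeks and mated with stud males. Pbrm1 encodes a subunit of a chromatin remodeling complex of the SWI/SNF family. The cKO mice carried floxed Pbrm1 alleles and 1 PR-IRES-cre allele, which deletes in cells that express the progesterone receptor. The labels call the controls WT, whereas a legend of the study names floxed mice for them, and its mating tests used floxed littermates. By its name in the study's methods the cre line came from 129S stock and was carried on a B6 background. The strain of the floxed line, the MHC haplotype of these mice, whether the animals of these libraries were littermates and the number of animals behind a library are not given in the sources used here. Cells were released from whole minced oviducts by enzymes, filtered, plated for 4 h and washed after 2 h in fresh medium, and no sort for a cell type is described. Libraries held between 15390818 and 18947947 counts, at which 3 counts corresponded to between 0.159 and 0.193 CPM (scaled counts on a common library size). For Pbrm1 itself the WT mean was 175 ± 7.09 CPM and the cKO mean 45.6 ± 4.39 CPM (SD, n = 3), a log2 fold change of -1.94 (edgeR adjusted p = 9.13e-11). The 10 smooth muscle markers listed summed to 3701 ± 42.4 CPM in WT and 4986 ± 329 CPM in cKO. Tagln, the highest of them, was at 1598 ± 22.1 CPM in WT against 2000.0 ± 60.1 CPM in cKO. Myocd, the lowest, was at 4.60 ± 0.679 and 3.60 ± 1.01 CPM. The 8 fibroblast markers listed summed to more, 5212 ± 299 CPM in WT and 7385 ± 149 CPM in cKO. Leukocyte markers were present too, with Ptprc, the gene of the pan leukocyte antigen CD45, at 15.04 ± 0.567 CPM in WT.

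Class II molecules carry peptides from the endosomal pathway to the cell surface, where CD4 T cells read them. The alpha and beta chains assemble with the invariant chain in the endoplasmic reticulum, cathepsin S trims the invariant chain in endosomes, and H2-DM then exchanges its remnant for a peptide. Macrophages, dendritic cells and B cells express these genes constitutively, and many other cell types express them when interferon gamma induces Ciita, which acts on promoters that carry an X box and a Y box.

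The promoter sequences of the 3 genes below are shown because all were among the members with the largest differences and because the X and Y boxes are the known sites at which this gene family is controlled. They are RefSeq windows of GRCm38.p6, 250 bases before to 50 bases after the gene start, read 5′ to 3′ on the strand of the gene, at chr17:34287774-34288073 (minus strand) for H2-Aa, chr17:34305617-34305916 (plus strand) for H2-Eb1 and chr17:34152941-34153240 (plus strand) for H2-DMb1. Capitals mark matches to the X box core (CTAGNNAC), the Y box (CTGATTGG) and its core (ATTGG), each searched on both strands, the core lying within the Y box.
H2-Aa: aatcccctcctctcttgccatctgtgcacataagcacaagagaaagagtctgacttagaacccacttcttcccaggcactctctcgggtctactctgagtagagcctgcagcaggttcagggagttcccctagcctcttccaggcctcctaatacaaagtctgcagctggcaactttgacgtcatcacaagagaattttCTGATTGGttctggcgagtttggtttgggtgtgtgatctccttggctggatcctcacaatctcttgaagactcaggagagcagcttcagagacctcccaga
H2-Eb1: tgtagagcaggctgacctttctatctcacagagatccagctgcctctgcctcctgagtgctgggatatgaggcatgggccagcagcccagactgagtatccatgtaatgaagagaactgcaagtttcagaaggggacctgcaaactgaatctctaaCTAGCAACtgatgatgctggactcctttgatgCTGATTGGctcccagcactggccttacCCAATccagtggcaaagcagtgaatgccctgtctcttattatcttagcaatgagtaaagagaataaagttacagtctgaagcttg
H2-DMb1: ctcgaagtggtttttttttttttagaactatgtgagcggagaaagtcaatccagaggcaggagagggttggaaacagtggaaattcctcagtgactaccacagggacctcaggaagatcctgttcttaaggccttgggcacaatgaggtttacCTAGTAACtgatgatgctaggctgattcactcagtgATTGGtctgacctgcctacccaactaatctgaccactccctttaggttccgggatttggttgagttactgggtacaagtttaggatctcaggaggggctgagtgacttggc

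The H2-Aa window held the full Y box, which began 51 bases before the start. H2-Eb1 held it 62 bases before the start, and 27 bases lay between its X box core (CTAGCAAC) and the Y box core. In H2-DMb1 the X box core read CTAGTAAC and 28 bases lay between it and the Y box core, with no match to the full Y box. The deposited table starts H2-DMb1 within this window, upstream of the RefSeq start. The longest run of bases common to H2-Eb1 and H2-DMb1 was aactgatgatgct (13 bases), which starts in the last bases of the X box core in both. The H2-Aa window had no match to CTAGNNAC, which says only that these letters are not in the window. Among all 32851 promoter windows of this length, 4.1% held the Y box, 37.4% its core, 10.4% the X box core and 3.89% both cores. The interferon gamma activated site (TTCNNNGAA), present in 8.3% of all windows, was in none of the 6 windows found for 5 members. The 2 windows of H2-DMa lay upstream of its start in the deposited table, held no X box core, and 1 of them held the Y box core. The Ctss window held none of these motifs. H2-Ab1 and Ciita had no entry, and the Cd74 window was not used.

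H2-Aa, H2-Ab1 and H2-Eb1 lie side by side on chromosome 17. H2-Aa (ENSMUSG00000036594.14; chr17:34282744-34287827, minus strand, GRCm38), the alpha chain of I-A, was at 7.03, 6.95 and 6.44 CPM in WT replicates 1 to 3 and at 33.2, 31.6 and 31.9 CPM in cKO replicates 1 to 3. The groups did not overlap. The means were 6.81 ± 0.321 and 32.2 ± 0.874 CPM (SD, n = 3), 2.24 apart on the log2 scale (SE 0.081). That difference is what the gene was chosen for.

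H2-Ab1 (ENSMUSG00000073421.5; chr17:34263209-34269418, plus strand), the beta chain of I-A, was at 6.03, 5.19 and 4.16 CPM in WT and at 22.7, 21.9 and 24.8 CPM in cKO. Every cKO library was above every WT library, and the rise of the mean from 5.12 ± 0.937 to 23.2 ± 1.51 CPM was larger than the replicate spread (edgeR log2 fold change 2.17, SE 0.12, adjusted p = 1.2e-08). H2-Eb1 (ENSMUSG00000060586.10; chr17:34305877-34316199, plus strand), the beta chain of I-E, was at 4.02, 4.38 and 4.22 CPM in WT and at 21.4, 23.5 and 20.01 CPM in cKO. It had the largest log2 fold change of the tested members, 2.36 (SE 0.11, edgeR adjusted p = 1.96e-09), again with no overlap. On this scale 3.67% of the 15376 genes tested had a log2 fold change over 1 and 0.598% one over 2.

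Of the 6 tested members other than H2-Aa, 5 were higher in cKO at an edgeR adjusted p under 0.05, 0 were lower, and their median log2 fold change was 1.78. At the same threshold 21.9% of all tested genes were higher, and the median log2 fold change of all tested genes was 0.00156. The same 5 members had all cKO libraries above all WT libraries, as had 26.6% of all tested genes. For these members and for the lists described below, a count of 0 in 1 direction by edgeR was also 0 by DESeq2 and limma-voom. At an unadjusted edgeR p under 0.05 it was 0 too, except that Socs1 (interferon gamma signaling) and Cd40 (class II turnover and costimulation) were lower. In the neutrophil and mast cell list 1 marker was also lower at that unadjusted threshold.

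**Figure D1:**
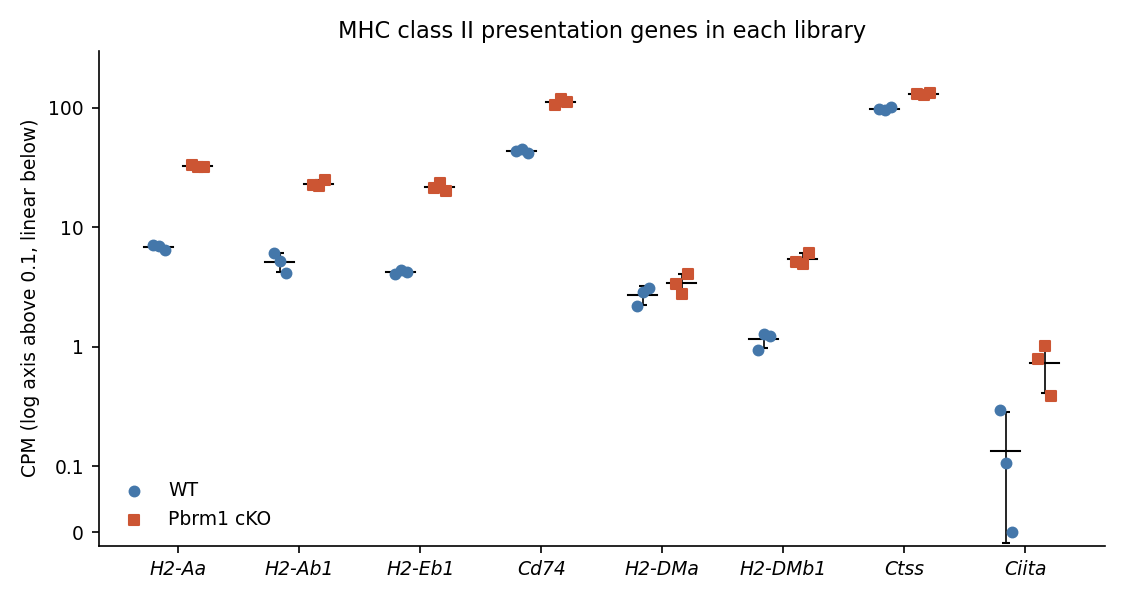
Each point is the CPM of 1 library (circles, 3 WT; squares, 3 Pbrm1 cKO) for the 8 class II presentation genes, with bars for the mean and SD, on an axis that is logarithmic above 0.1 and linear below. The groups overlap for H2-DMa and are apart for the other genes, H2-Aa going from a mean of 6.81 to 32.2 CPM.

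Cd74 (ENSMUSG00000024610.14; chr18:60803848-60812646, plus strand), the invariant chain that occupies the groove of new class II molecules, was at 43.2, 44.8 and 41.5 CPM in WT and at 106.4, 118.8 and 111.5 CPM in cKO. The groups were far apart, and its log2 fold change of 1.38 was smaller than that of the chains (SE 0.056, edgeR adjusted p = 9.15e-10). Ctss (ENSMUSG00000038642.10; chr3:95526786-95556403, plus strand), which cleaves the invariant chain, was at 97.03, 96.5 and 102 CPM in WT and at 130.7, 128.8 and 132.5 CPM in cKO. It had the smallest change among those that passed the test (log2 fold change 0.41, SE 0.045, edgeR adjusted p = 8.76e-06).

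The chains of H2-DM act only as a pair, and here 1 of the 2 genes passed the test. H2-DMb1 (ENSMUSG00000079547.3; chr17:34153072-34160230, plus strand) was at 0.946, 1.28 and 1.23 CPM in WT and at 5.12, 4.88 and 6.11 CPM in cKO. Its groups did not overlap, and the mean rose from 1.15 ± 0.182 to 5.37 ± 0.654 CPM (log2 fold change 2.20, SE 0.19, edgeR adjusted p = 9.56e-07). H2-DMa (ENSMUSG00000037649.9; chr17:34135182-34139101, plus strand) was at 2.19, 2.89 and 3.10 CPM in WT and at 3.37, 2.76 and 4.05 CPM in cKO. These ranges overlapped and no difference beyond the replicate spread was found (edgeR log2 fold change 0.30, SE 0.20, adjusted p = 0.235, and from 0.0851 to 0.586 over 14 alternative settings). Counts of H2-DMa were only 37 to 63 per library. H2-DMb1 has a near copy, H2-DMb2, with 95.7% identity over 1081 of the 1404 bases of the H2-DMb1 transcript, so reads could be lost or shifted between the pair. H2-DMb2 was at 13 counts over the WT libraries and 5 over the cKO libraries, and the sum of both genes was 1.40 ± 0.244 CPM in WT against 5.48 ± 0.789 CPM in cKO.

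Ciita (ENSMUSG00000022504.10; chr16:10480059-10528418, plus strand), the master regulator of class II transcription, was near the limit of detection. It had 5, 2 and 0 counts in the WT libraries and 14, 19 and 6 in the cKO libraries, and did not pass the filter on low counts. All cKO libraries were above all WT libraries. Over the groups, 39 counts against 7 gave a ratio of 5.63 with an exact 95% binomial interval of 2.49 to 14.9, which covers counting error only and not the spread between replicates. DESeq2, which was run without that filter, gave a log2 fold change of 2.45 (SE 0.86, adjusted p = 0.0175), and edgeR without a filter gave 2.41 (adjusted p = 0.000171).

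Levels of different genes were compared per length, as TPM (counts per base of the merged exons of a gene, on a common total). The merged exons held 1874 bases for H2-Aa and 1184 for H2-Eb1. The transcripts used in the search for near copies held 1128 and 1669 bases. The order of genes close in TPM therefore depends on the length used. In WT the order from high to low was Ctss at 230 ± 7.24 TPM, Cd74 at 96.9 ± 3.78, H2-Aa at 11.5 ± 0.532, H2-Eb1 at 11.3 ± 0.506, H2-Ab1 at 9.91 ± 1.80, H2-DMa at 5.26 ± 0.932, H2-DMb1 at 2.46 ± 0.391 and Ciita at 0.0445 ± 0.0496 TPM (SD, n = 3). The library ranges of H2-Aa and H2-Eb1 overlapped, as did those of H2-Eb1 and H2-Ab1, and all other neighbours in the order were apart. In cKO the chains stood at 56.8 ± 4.59 TPM for H2-Eb1, 53.6 ± 1.77 for H2-Aa and 44.04 ± 2.75 for H2-Ab1, below Ctss at 300 ± 4.36 and Cd74 at 248 ± 12.8 TPM. There H2-DMb1, at 11.3 ± 1.33 TPM, stood above H2-DMa at 6.44 ± 1.22 TPM, the reverse of their order in WT, and H2-Eb1 and H2-Aa were the only neighbours that overlapped.

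The proportions between members were also taken within each library. The size of each ratio depends on the lengths used, but its comparison between groups does not. H2-Aa over H2-Ab1 was a TPM ratio of 1.18 ± 0.167 in WT and 1.22 ± 0.0865 in cKO, and H2-Eb1 over H2-Aa one of 0.980 ± 0.0675 and 1.06 ± 0.0976, with overlapping ranges for both. Cd74 over H2-Aa was 8.43 ± 0.228 in WT and 4.64 ± 0.369 in cKO, with no overlap. H2-Aa, the divisor, was chosen for its rise, so this lower ratio partly restates that choice. The difference between the 2 H2-DM genes can be read from their ratio, since H2-DMb1 over H2-DMa was 0.478, 0.491 and 0.438 in the WT libraries and 1.68, 1.95 and 1.67 in the cKO libraries, also with no overlap. With 3 libraries a group the exact permutation test of 1 ratio cannot go below a two-sided p of 0.1, and none is given.

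**Figure D2:**
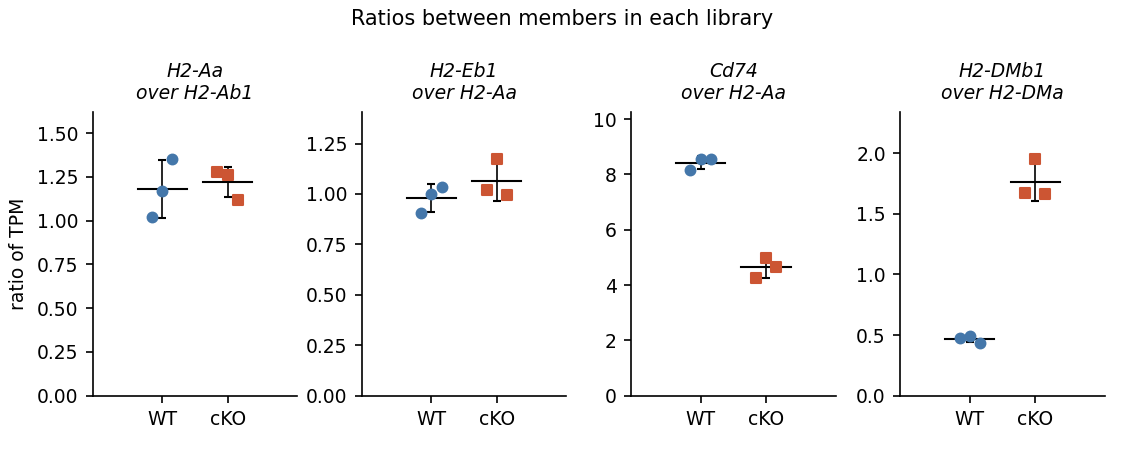
Each panel plots the ratio of the TPM of 2 members in each library (circles, 3 WT; squares, 3 Pbrm1 cKO), with bars for the mean and SD and axes that start at 0. The ratios among H2-Aa, H2-Ab1 and H2-Eb1 overlap between groups, while Cd74 over H2-Aa is lower and H2-DMb1 over H2-DMa higher in every cKO library. H2-Aa was chosen for its rise, which the lower ratio of Cd74 to H2-Aa partly restates.

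Relatives of the members were next examined in the same region. H2-Ea-ps, the alpha chain of I-E and thus the partner of the H2-Eb1 product, is annotated as a polymorphic pseudogene, a gene that is intact in some strains and not in the reference. It had 12, 22 and 17 counts in the WT libraries and 0, 0 and 1 in the cKO libraries, opposite in direction to H2-Eb1 (log2 fold change -5.21, SE 0.70, edgeR adjusted p = 4.85e-05). From the counts, 51 against 1, it was 50.5 times lower in cKO, with an exact 95% interval of 8.66 to 2030 that covers counting error only. H2-DMb2, H2-Oa, H2-Ob and H2-Eb2 did not pass the filter, the last 3 at no more than 2 counts in any library.

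MHC genes, the class II chains above all, differ in sequence between mouse strains, and reads were aligned to the genome of 1 strain. Besides H2-Ea-ps, class I genes on the same chromosome, chosen after their values were seen, also moved far and in both directions with the group. H2-Q2 was at 8.37 ± 0.593 CPM in WT against 0.167 ± 0.0893 CPM in cKO, and H2-T22 at 16.4 ± 0.987 and 47.3 ± 10.1 CPM. Of 16 class I rows tested, 6 were higher and 4 lower, against 21.9% and 21.8% of all tested genes. Their log2 fold changes ran from -5.54 to 1.62. A haplotype can change how reads align and, for H2-Ea-ps, whether the chain is made. Since the MHC haplotype of the groups is not given, a difference between them in haplotype cannot be told apart here from a difference in expression that goes with Pbrm1 deletion. This holds for the 5 members on chromosome 17 and for the other genes of the region described next. Cd74, Ctss and Ciita lie on chromosomes 18, 3 and 16.

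The other genes of the region were split between lists. Tap1, a subunit of the transporter that loads class I molecules, and the immunoproteasome genes Psmb9 and Psmb8 lie between H2-DMb1 and H2-Ab1, at -100, -100 and -90.1 kb from the start of H2-Aa, and were placed among the interferon gamma targets. All 3 were higher in cKO, with log2 fold changes of 0.94, 0.63 and 0.53. Of 13 other tested neighbours outside the class II family, 0 were higher and 4 were lower, against 21.8% of all tested genes that were lower, and their median log2 fold change was -0.08. Brd2, which encodes a bromodomain protein and starts at -165 kb from the start of H2-Aa, was at 348 ± 4.02 CPM in WT against 271 ± 10.01 CPM in cKO (log2 fold change -0.36, edgeR adjusted p = 1.97e-05), and Agpat1, an enzyme of phospholipid synthesis, fell by 0.26 on the log2 scale (edgeR adjusted p = 0.000352). The call of Vps52 was lost in 6 of 14 alternatives (DESeq2, library size only, and without WT replicate 1 or 2 or cKO replicate 1 or 3) and that of Wdr46 in 4 (DESeq2, and without WT replicate 1 or 3 or cKO replicate 3). Tap2, the partner of Tap1 in the transporter, starts at -84.3 kb. It was at 33.5 ± 0.691 and 36.2 ± 3.31 CPM and was not called.

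**Figure D3:**
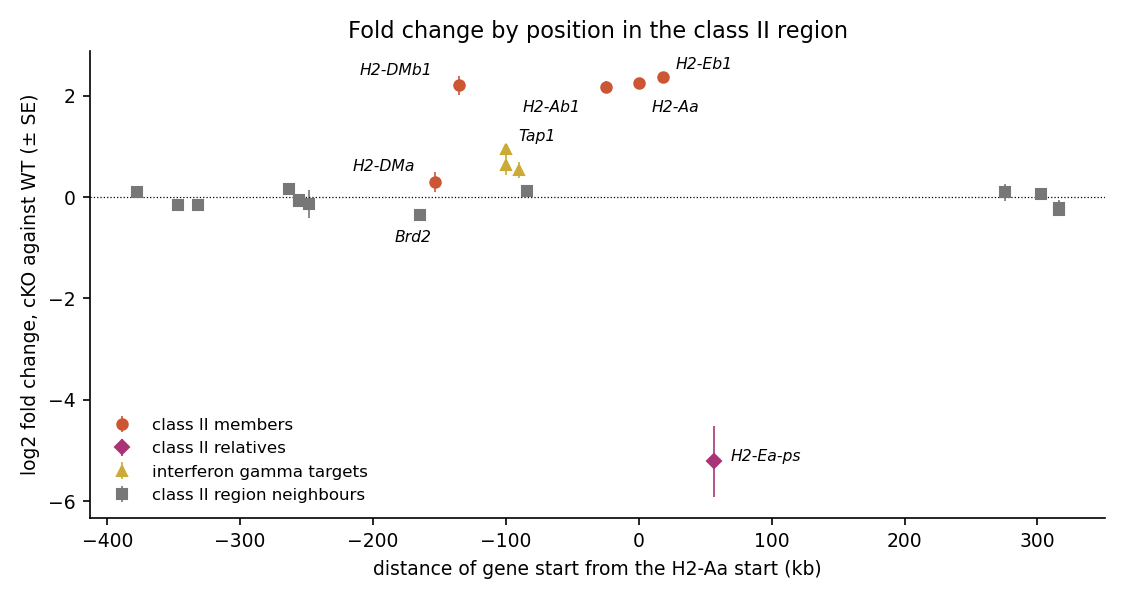
The log2 fold change of Pbrm1 cKO against WT (± SE) is plotted against the distance in kb of each gene start from the start of H2-Aa, for tested genes of the lists on chromosome 17. H2-Ab1, H2-Aa, H2-Eb1 and H2-DMb1 lie above 2, H2-DMa at 0.30, and the interferon gamma targets Tap1, Psmb9 and Psmb8 at 0.94, 0.63 and 0.53. The neighbours of the remaining list lie between -0.36 and 0.15, and H2-Ea-ps lies at -5.21.

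Genes of class II transcription were called in both directions. Of 11 listed, 10 were tested, 4 were higher, 1 was lower and 5 were not called, and the median log2 fold change was 0.05. Of all tested genes, 21.9% were higher and 21.8% lower. Rfx5, the DNA binding subunit of the X box complex, was at 11.8 ± 0.806 CPM in WT against 14.9 ± 1.29 CPM in cKO (log2 fold change 0.34, edgeR adjusted p = 0.0122), a call that was lost without WT replicate 3 (adjusted p = 0.0586). Its partners Rfxap and Rfxank had log2 fold changes of 0.15 and -0.05 and were not called. Nfya, a subunit of the factor that binds the Y box, fell from 44.4 ± 2.99 to 30.5 ± 3.19 CPM (log2 fold change -0.54, edgeR adjusted p = 9.86e-05). Spi1, the myeloid factor PU.1, rose from 6.41 ± 0.459 to 12.8 ± 0.108 CPM (log2 fold change 1.00, edgeR adjusted p = 3.69e-06). The myeloid factor Irf8 and Prdm1, a repressor of Ciita, each rose by 0.59 on the log2 scale.

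Interferon gamma is the main known inducer of Ciita outside professional presenting cells. Its own gene, Ifng, had at most 1 count in any library. Of 8 tested genes of the receptor and its signaling chain, 6 were higher and 0 lower (median log2 fold change 0.51). Over all tested genes, 21.9% were higher and 21.8% lower. Irf1, a transcription factor that acts at the Ciita promoter, rose from 18.2 ± 0.786 to 25.8 ± 2.02 CPM (log2 fold change 0.50, edgeR adjusted p = 0.000201). The receptor subunits Ifngr1 and Ifngr2 and the kinase Jak2 had log2 fold changes of 0.53, 0.51 and 0.58. Socs1, an inhibitor of cytokine signaling, had one of -0.40 (edgeR adjusted p = 0.098), and was called lower without a filter on low counts and without WT replicate 3 or cKO replicate 3, at an adjusted p as low as 0.0313.

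All 11 tested interferon gamma targets were higher in cKO, against 21.9% of all tested genes, with a median log2 fold change of 1.27. Tap1, Psmb9 and Psmb8, which lie in the class II region, are among them. Gbp3, a guanylate binding protein, went from 8.10 ± 0.370 to 44.1 ± 13.6 CPM (log2 fold change 2.44, SE 0.20, edgeR adjusted p = 4.75e-07). The immunity related GTPases Iigp1, Igtp and Irgm1 rose by 2.10, 1.73 and 1.27 on the log2 scale, and Gbp2 and Gbp7 by 1.54 and 1.41. These targets also respond to type I interferons. Summed over the list, the targets were at 353, 247 and 377 CPM in cKO replicates 1 to 3 and at 126 to 130 CPM in WT. The sum of H2-Aa, H2-Ab1 and H2-Eb1 in the same cKO libraries was 77.3, 77.0 and 76.7 CPM. Whether the chains and the targets vary together between libraries was not tested. Among the calls, that of Cxcl10 was lost without WT replicate 1 or 2 or cKO replicate 1 or 3, that of Psmb8 without WT replicate 1 or 3 or cKO replicate 1, and that of Psmb9 with DESeq2 and without WT replicate 1 or 2 or cKO replicate 3, at adjusted p-values of at most 0.0825, 0.0779 and 0.0913.

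**Figure D4:**
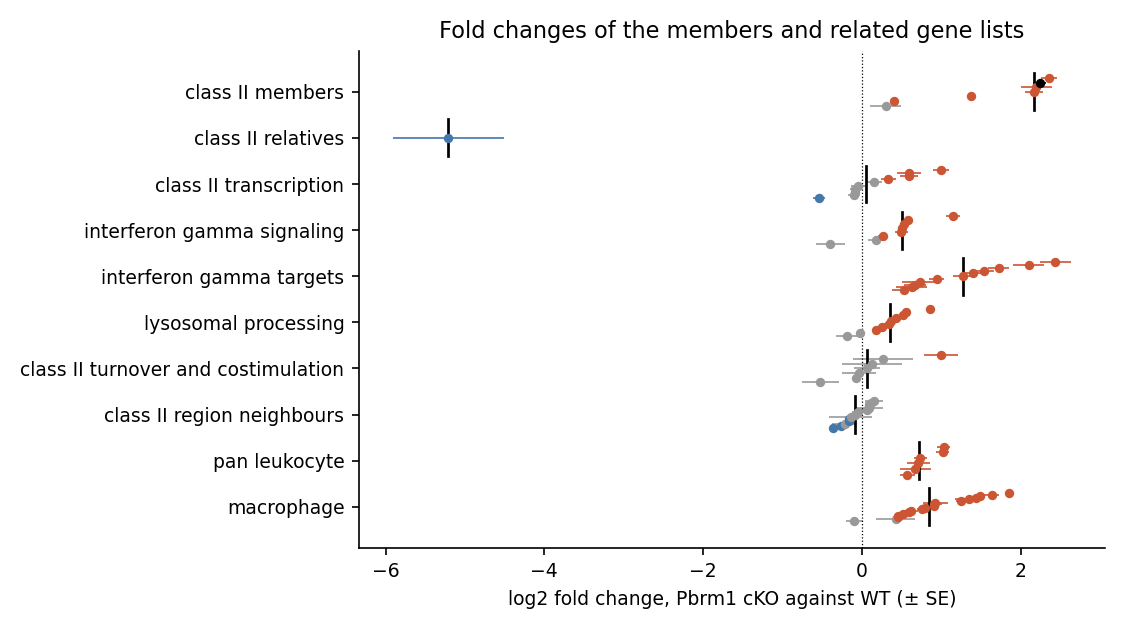
Each point is the log2 fold change (± SE) of 1 tested gene, by list, in red where higher and blue where lower at an edgeR adjusted p under 0.05 and in grey where not called; H2-Aa, chosen for its rise, is in black, and vertical bars are list medians. The class II members reach from 0.30 to 2.36 and the interferon gamma targets from 0.53 to 2.44, whereas the transcription list centres on 0.05.

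Genes of lysosomal processing, which provides the peptides and trims the invariant chain, rose by less. Of 10 tested, 8 were higher and 0 lower (median log2 fold change 0.35, beside 0.41 for Ctss). For this list and the next, the shares over all tested genes were 21.9% higher and 21.8% lower. Ctsl, which trims the invariant chain in the thymic cortex, rose from 424 ± 13.0 to 772 ± 60.6 CPM (log2 fold change 0.86, edgeR adjusted p = 6.94e-08), and Ctsb by 0.55 and Ctsh by 0.52 on the log2 scale. Sppl2a, the protease that removes the last membrane stub of the invariant chain, rose by 0.34. Of 7 tested genes of class II turnover and costimulation only March1, the ligase that marks surface class II molecules for degradation, was called by edgeR, and it rose from 1.95 ± 0.595 to 3.87 ± 0.469 CPM (log2 fold change 1.00, edgeR adjusted p = 0.00186). The costimulatory ligands Cd80 and Cd86 were at 3.40 ± 0.445 and 2.66 ± 0.618 CPM in WT and at 3.55 ± 0.332 and 2.64 ± 0.502 CPM in cKO, and neither was called.

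Macrophage and pan leukocyte markers moved with the members. Of 18 macrophage markers 16 were higher and 0 lower (median log2 fold change 0.85). For these and the pan leukocyte markers, the shares over all tested genes were 21.9% higher and 21.8% lower. The complement genes C1qb, C1qc and C1qa rose by 1.86, 1.49 and 1.25 on the log2 scale, the mannose receptor gene Mrc1 by 1.64, the Fc receptor gene Fcgr1 by 1.43 and the scavenger receptor gene Cd163 by 1.35. All 6 pan leukocyte markers were higher, with Ptprc at 30.6 ± 2.70 CPM in cKO (log2 fold change 1.02, edgeR adjusted p = 4.32e-07), though the call of Cytip was lost without WT replicate 2 (adjusted p = 0.0611). In bulk RNA, more cells of a type and more RNA of a gene per cell cannot be told apart.

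The other presenting cells left little trace. The dendritic cell genes Cd209a and Siglech and the B cell gene Ms4a1 had 0 counts in all 6 libraries, and Xcr1 and Clec9a had at most 1 count. Flt3 was at 0.0587 ± 0.0586 CPM in WT against 0.334 ± 0.154 CPM in cKO, near the floor. Itgax, which macrophages express as well as dendritic cells, rose from 1.99 ± 0.133 to 3.92 ± 0.149 CPM (log2 fold change 0.98, edgeR adjusted p = 0.000318), and Zbtb46, which endothelium also expresses, by 0.26, a call lost with DESeq2 and without WT replicate 2 or 3 or cKO replicate 1 or 3. The B cell gene Cd79b had 2, 2 and 2 counts in WT and 8, 7 and 1 in cKO. Of the 6 B cell markers only Blnk, which macrophages express too, was tested, and of the 9 T and NK cell markers only Lck. Both were higher, by 0.36 and 0.55 on the log2 scale, the call of Lck being lost with DESeq2, while Cd8a had 0 counts. The T cell gene Cd3e had 5, 4 and 2 counts in WT and 2, 1 and 0 in cKO, and Cd3g 1, 1 and 1 against 5, 1 and 2. Cd4, of the turnover and costimulation list, had 33 counts over the WT libraries and 11 over the cKO libraries and was not tested.

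The summed chains had a larger ratio between the groups than the summed macrophage or pan leukocyte markers. H2-Aa, chosen for its rise, is part of the chain sum, so the comparison partly restates that choice. H2-Aa, H2-Ab1 and H2-Eb1 summed to 14.8 to 17.1 CPM in the WT libraries and to 76.7 to 77.3 CPM in the cKO libraries, a ratio of means of 4.77. On their own, H2-Ab1 and H2-Eb1 had ratios of 4.52 and 5.14. The macrophage markers summed to 838 to 886 CPM and 1345 to 1416 CPM, a ratio of 1.61, and the pan leukocyte markers to 72.2 to 75.5 CPM and 123 to 135 CPM, a ratio of 1.78. Lyz2, with a ratio of 1.37, made up 452.5 of the mean macrophage sum of 854.8 CPM in WT and 621 of 1378 CPM in cKO. Ratios of single macrophage markers ran from 0.938 for Mertk to 3.63 for C1qb. Relative to the pan leukocyte sum, the chains were at 0.219 ± 0.0168 in WT and 0.590 ± 0.0348 in cKO, and H2-DMb1 at 0.0156 ± 0.00221 and 0.0411 ± 0.00441, with no overlap. Cd74 on that scale was at 0.587 ± 0.0164 and 0.859 ± 0.0319, also with no overlap. On the same scale Ctss was lower in every cKO library, at 1.34 ± 0.0599 and 1.00 ± 0.0559. H2-DMa was at 0.0370 ± 0.00621 and 0.0260 ± 0.00486. Its groups nearly touched, with the lowest WT library at 0.0303 and the highest cKO library at 0.0299, on few counts. The part of a change in the number or state of leukocytes in the differences of the members was not tested.

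**Figure D5:**
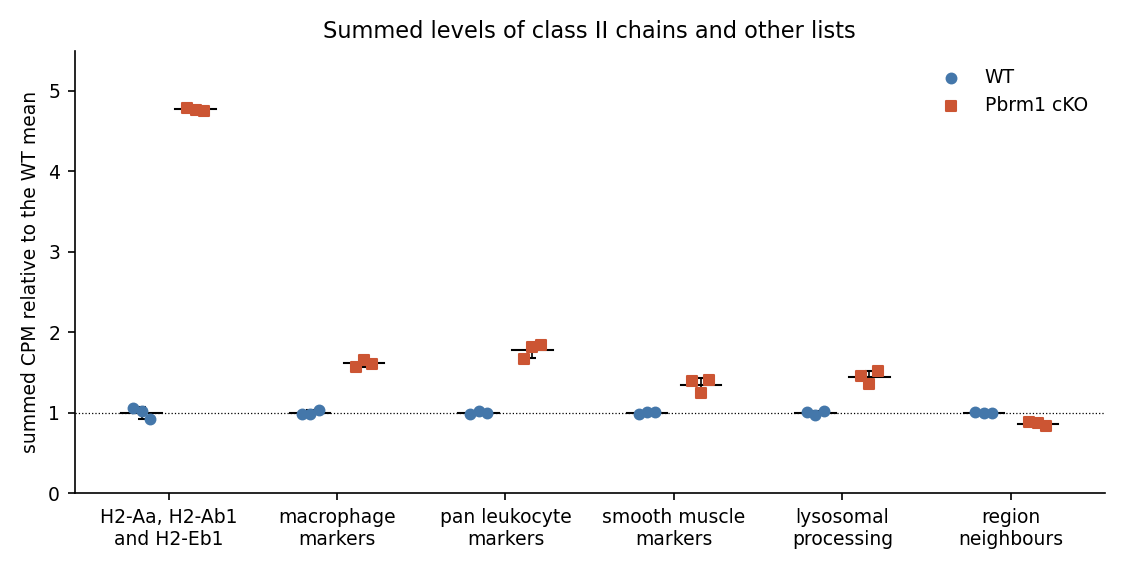
Summed CPM of the 3 class II chain genes and of other gene lists in each library is shown relative to the WT mean of each (circles, 3 WT; squares, 3 Pbrm1 cKO; bars, mean and SD), on an axis that starts at 0. The chains, with H2-Aa chosen for its rise among them, sit at 4.77 times the WT mean in cKO. The macrophage markers, of which Lyz2 has the largest share, sit at 1.61 and the pan leukocyte markers at 1.78 times, and the region neighbours below 1.

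Markers of other cell types moved with the group as well. The shares over all tested genes, 21.9% higher and 21.8% lower, apply to each of these lists. Of 8 fibroblast markers 5 were higher and 1 lower (median log2 fold change 0.75), with the collagen binding proteoglycan gene Dcn up by 0.92, the growth factor receptor gene Pdgfra up by 0.82 and Dpt at -0.65, and they summed to 4875 to 5448 CPM in WT and 7237 to 7535 CPM in cKO, a ratio of 1.42. Of 10 markers of oviduct epithelium 8 were higher and 0 lower (median log2 fold change 0.36), with Epcam up by 1.07 and Krt19 by 0.79, and they summed to 970 to 1055 CPM and 1238 to 1379 CPM, a ratio of 1.29. Among these 8, the calls of Krt8 (without WT replicate 1 or cKO replicate 3), Krt18 (without WT replicate 1 or cKO replicate 1) and Ovgp1 (6 of 14 alternatives, among them DESeq2 and leaving out WT replicate 1 or 3 or cKO replicate 1 or 3) were lost. Of 10 smooth muscle markers 6 were higher and 1 lower (median log2 fold change 0.29), with a ratio of sums of 1.35.

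Calls among endothelial markers were near the shares over all tested genes, 21.9% higher and 21.8% lower. Of 9, 2 were higher and 2 lower, with the growth factor receptor gene Kdr at -0.87 and the clotting factor gene Vwf at 1.71 on the log2 scale. They summed to 525 to 576 CPM in WT and 438 to 475 CPM in cKO, a ratio of 0.82. The part of these shifts in the differences of the members was not tested.

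The genes whose pattern was most like that of the members were Ergic1, Cd9, Cpn1, Fndc5, Bet1, Vamp5, Gsap, Lmbrd1, Sgce and Fcer1g, with a Pearson r of log2 CPM with the mean member z score between 0.998 and 0.999 over the 6 libraries, among 13954 other tested genes at 1 CPM or more. Since the groups are apart, this likeness mostly reflects the difference between them. Their log2 fold changes ran from 0.28 for Bet1 to 2.45 for Cpn1, and Fcer1g is also on the macrophage list. On deviations from the group means, the nearest genes were Ythdc2, Zfp719, Nmral1, Ptger1, Rpain, Pet100, Jup, Phactr2, Terf2 and Sdhaf3, with r from 0.986 to 0.999, and neither likeness was tested. Between the members themselves, the deviations of H2-DMa and H2-DMb1 had an r of 0.933 and those of H2-Aa and Ctss one of -0.73, the highest and the lowest of 21 pairs, of which 7 were positive.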

How the data were processed

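RNA-seq of 6 libraries, 3 WT and 3 Pbrm1 cKO, was analysed from the raw read counts per gene that the authors deposited. Per the file headers, featureCounts 1.6.4 assigned reads to exons of GENCODE M18 in reverse-stranded mode, with defaults that drop reads mapping to several places, so genes with near copies can lose reads. The submitters' processing notes also name cutadapt, HISAT2 and GRCm38.p5, and alignment to 1 reference can lower counts of other alleles. GENCODE M21 gave a symbol to 54079 of 54232 genes (99.7%). No per-sample column was left unused (0).

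The members and lists were chosen with earlier results of these data known. Groups came from the labels, which do not say that libraries came from separate animals, so p-values measure the spread between these libraries. Replicates of a group differed by more than sampling noise (chi-square per gene from 1.31 to 1.6). Tests used edgeR 4.0.16 (R 4.3.3), namely its two-sided quasi-likelihood F-test with TMM scaling and the filterByExpr filter, adjusted by Benjamini-Hochberg over 15376 genes, with a threshold of 0.05. It was tried first on simulated counts. The SE is the absolute log2 fold change over the square root of F. The biological coefficient of variation was 5.32%. Depth was 15390818 to 18947947 counts. Intervals were exact binomial intervals of counts summed over each group, so they cover counting error only. Reads carried no molecular identifiers.

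Alternatives were DESeq2 1.42.0 (the study's tool), limma-voom 3.58.1, 3 other scalings, no filter, at least 10 counts in every library, a replicate block, a threshold of 0.01 and leaving out each library. Same-numbered libraries deviated with correlations of -0.0243, 0.0353 and 0.0928 over all tested genes, so they shared little deviation. The labels do not say whether they were prepared together, and these correlations cannot settle it. Near copies were sought with BLAST 2.17.0. All 8 members were named, with up to 6 called genes of largest change per list, H2-Ea-ps, Ifng, Irf1, Rfx5 and Pbrm1 always (1 further gene of this rule is not reported here), and 10 genes per measure of likeness. Other genes were named after their values were seen. Hsd17b8 had no row under that symbol.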

Additional observations from a re-analysis of the deposited data

How the results depend on the processing

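The direction of H2-Aa and the direction and call of the 6 other tested members held under all 14 alternatives. Log2 fold changes were 2.20 to 2.26 for H2-Aa, 2.04 to 2.30 for H2-Ab1, 2.30 to 2.41 for H2-Eb1, 1.34 to 1.42 for Cd74, 0.39 to 0.43 for Ctss, 2.08 to 2.29 for H2-DMb1 and 0.16 to 0.44 for H2-DMa, the ends being fits that left out 1 library. The log2 ratio of Ciita ranged from 1.85 without WT replicate 3 to 3.77 without WT replicate 1, over 1.5 times the 2.44 of all libraries. It was called by DESeq2, without a filter, and in 4 of the 6 fits that left out a library, where 6 members were called in place of 5. It had no value under limma-voom, the block and the stricter filter. The pathway lists held 36 called genes, from 31 to 38 under the alternatives. All genes called were 6723, from 5329 with DESeq2 to 7054 over the alternatives at 0.05, and 4665 at 0.01. A replicate block gave 6908 calls, 36 of them in the pathway lists and 5 in members, and no member changed its call. Other scalings moved the median of all genes to between -0.0103 and 0.0174. Depth limits Ciita, H2-Ea-ps and H2-DMb2.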
